A study of Mus musculus with 194 samples.

Results

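Corticosterone, the main glucocorticoid of mice, reaches the brain after a stressor or a stimulant drug and acts through a pair of nuclear receptors, the glucocorticoid receptor (Nr3c1) and the mineralocorticoid receptor (Nr3c2). Hormone-bound receptors enter the nucleus, bind response elements in DNA and raise the transcription of target genes, and some of these products feed back on the receptor. Several of the same genes also answer to other signals, among them growth factors, cyclic AMP, low oxygen and DNA damage, so they are described here as glucocorticoid and stress responsive genes without a claim about the signal. The 10 genes were taken by name from the 19363 genes of the count table: the receptors Nr3c1 and Nr3c2; Fkbp5, a co-chaperone that lowers the receptor's affinity for hormone; and the targets Sgk1, Tsc22d3, Ddit4, Cdkn1a, Nfkbia, Plin4 and Pdk4. All 10 had counts. At 1 hr after cocaine Sgk1, Ddit4 and Nfkbia were above the 0 hr mean in every structure and experience, and the mRNAs of both receptors were not called at any time. At 4 hr after repeated cocaine all mice were above all 0 hr mice in 30 of 50 pairs of gene and structure (17.3% for all genes). Outside the dorsal striatum these pairs rest, by the sample names, on the same 1 or 2 mice at 4 hr and 2 at 0 hr. The test between experiences called none of the members with the filter on low counts and 8 of their tests without it.

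The data are 3′ RNA-seq of the amygdala (Amy), the lateral hypothalamus (LH), the dorsal striatum (DS), the limbic cortex (LCtx) and the nucleus accumbens (NAc) of wild-type male C57BL/6OLAHSD mice that were 6 to 7 weeks old on arrival, so that challenge mice were older at collection than acute mice. Before their first cocaine mice were habituated with saline injections for 3 days, and the naive 0 hr mice are described as home-cage controls without treatment. Acute mice received their only dose of cocaine, at 20 mg/kg intraperitoneally, repeated mice the last of 5 daily doses, and challenge mice a dose after 21 days of abstinence, and brains were taken 1, 2 or 4 hr later. The 0 hr mice came from the home cage with no injection on that day, and were cocaine-naive in the acute series, a day past the fourth dose in the repeated series, and abstinent in the challenge series. No saline-injected time course was among the groups, so cocaine and the handling and injection that came with it cannot be told apart. The tissue is a bulk dissection, in which fewer cells of a type and less RNA per cell cannot be told apart.

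The 194 libraries came from 166 samples of 48 mice in 9 sequencing runs, with 1193306 to 10367769 counts each (median 3296647.5). A group held 1 or 2 LH mice, 1 to 4 LCtx mice, 2 to 4 mice of the Amy or NAc and 3 to 5 DS mice. Defining transcripts set the LH and the striatal structures apart. Summed lateral hypothalamus markers were 9089 to 15923 CPM (counts scaled to library size) in the LH and at most 1572 in the other structures. Summed striatal projection neuron markers were 10739 to 13626 CPM in the DS and 6071 to 9569 in the NAc, and at most 1845 elsewhere. Cortical excitatory markers overlapped between LCtx (1057 to 1952 CPM) and Amy (588 to 1446), and amygdala markers likewise (243 to 428 in the Amy, 120 to 445 in the LCtx). Blood markers were at 8484 to 14319 CPM in the 8 acute LCtx mice and at 346 to 1222 in the other 20, and their part in LCtx results was not tested. Most mice gave several structures, so agreement between structures is not agreement between independent animals. Mostly a run held a single experience of a structure, so levels are set against each other within an experience unless stated otherwise. By the sample names no mouse cohort was shared between experiences, and the repeated DS series mixed 2 cohorts. The challenge series of the LCtx, NAc, Amy and LH each mixed 2 runs, and both NAc mice at 0 hr came from 1 of them. With run as a covariate the called Sgk1 and Ddit4 courses of these structures stayed called, and the number of called courses went from 1 to 5 in the Amy and from 0 to 1 in the LCtx.

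Promoter sequences are shown first for the 2 members in which a complete response element was found. The promoters of 9 of the 10 genes were searched, at 17 RefSeq start sites on GRCm38.p6. The palindrome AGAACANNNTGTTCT, the canonical element bound by the glucocorticoid and mineralocorticoid receptors, was searched on both strands in the window from 250 bases before to 50 bases after each start. It was found in 3 of 32851 promoters (0.00913%), of which 1 is the fifth start site of Sgk1 (in a gene that spans chr10:21882184-21999903 on the plus strand). In that promoter it begins 189 bases before the start. The receptor hexamer TGTTCT, which is part of the palindrome, was found in 4 of the 17 promoters and in 19.0% of all promoters. The NF-kB element GGGANNTTCC, bound by the factor that Nfkbia restrains, was found in the Nfkbia promoter and in 1.47% of all promoters (Nfkbia spans chr12:55489410-55492647, minus strand). The cyclic AMP element TGACGTCA was in none of the 17 and in 1.79% of all promoters. The 250 bases before each start follow, 5′ to 3′ on the strand of the gene, with capitals for the palindrome and hexamers in Sgk1 and for the NF-kB element in Nfkbia.
Sgk1, chr10:21993640-21993889, plus strand: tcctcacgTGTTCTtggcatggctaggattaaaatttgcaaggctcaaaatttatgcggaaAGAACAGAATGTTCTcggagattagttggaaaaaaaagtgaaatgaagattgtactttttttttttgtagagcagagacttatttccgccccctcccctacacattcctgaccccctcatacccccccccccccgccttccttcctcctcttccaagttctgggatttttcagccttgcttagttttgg
Nfkbia, chr12:55492648-55492897, minus strand: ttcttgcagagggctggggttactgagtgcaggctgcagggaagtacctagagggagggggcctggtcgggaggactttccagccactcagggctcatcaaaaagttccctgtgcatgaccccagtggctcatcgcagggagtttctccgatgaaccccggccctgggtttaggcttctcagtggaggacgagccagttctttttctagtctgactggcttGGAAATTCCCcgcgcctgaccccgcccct
The 3′ counts do not say which start site was used, and a match of letters is not a measured binding site.

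Time courses were tested in each structure with edgeR's quasi-likelihood F test of 1, 2 and 4 hr against 0 hr. A gene was called at a Benjamini-Hochberg adjusted p under 0.05 over all genes of the structure and a fold over 1.2 at the time point that differed most. The 3 time points of an experience share their 0 hr mice. Of the 15 combinations of structure and experience, Sgk1 was called in 5 and Ddit4 in 4, and the other 8 members in none, against 0.322% of all gene tests (633 of 196383, and 0.252% with the robust fit described next). At an unadjusted p under 0.05, with 6.03% of all gene tests there, Sgk1 passed in 14 of 15, Ddit4 in 13, Nfkbia in 11, Fkbp5 and Cdkn1a in 10 each, Tsc22d3 and Plin4 in 7 each, Nr3c2 in 1, and Pdk4 and Nr3c1 in 0. Without the filter on low counts 44 member courses were called in place of 9, against 0.641% of all gene tests and 0.843% over the genes that pass the filter: 13 for Sgk1, 11 for Ddit4, 5 each for Cdkn1a, Nfkbia, Plin4 and Tsc22d3, and 0 for the other 4. Such p-values were extreme for groups this small. In the NAc after challenge, with 2 mice at 0 hr, the F test of Sgk1 had an adjusted p of 6.6e-18, against 0.0017 with the filter. Calls without the filter are given only to show how far the results depend on it. A second fit, added after the data were seen, let genes that vary widely between mice keep their own spread (robust estimation in edgeR). It kept all 4 Ddit4 calls and none of the 5 Sgk1 calls, and its adjusted p is given beside each result as the robust value.

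The receptors come first. Nr3c1 encodes the low-affinity receptor that is filled when the hormone is high. In the NAc after acute cocaine it was at 66.8, 67.3, 67.4 and 70.4 CPM at 0 hr, 60.6, 71.3, 72.7 and 79.3 at 1 hr, 62.3, 67.5 and 67.7 at 2 hr, and 60.7, 63.6 and 64.7 at 4 hr. Over all 15 combinations its log2 difference from 0 hr ran from −0.32 to 0.18 at 1 hr, with 9 of 15 below 0, and at 4 hr 12 of 15 were below 0 with a median of −0.09. None of these passed the test. In the DS the level of Nr3c1 moved with the run, mainly in the acute mice. It was 61.1 to 83.3 CPM in the 16 acute mice and 86.5 to 110.6 in the 17 repeated mice, which came from another run, and the groups did not overlap. Among second libraries of 8 mice per experience, sequenced together in a further run, the acute mice were instead the higher, with 127.1 to 150.2 CPM in acute mice, 62.1 to 128.1 in repeated mice and 91.7 to 124.1 in challenge mice. No difference in Nr3c1 level between experiences is drawn from these libraries.

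Nr3c2 encodes the high-affinity receptor that is largely occupied at resting hormone levels. It lies at chr8:76899442-77245012 on the plus strand. In the LCtx it was at 16.7, 17.5 and 17.9 CPM in naive mice and at 23.3 and 36.9 at 1 hr after acute cocaine. After repeated cocaine the LCtx values were 15.8 and 18.2 CPM at 0 hr and 22.7 and 22.8 at 1 hr. After challenge they were 18.2 and 23.7 CPM at 0 hr and 18.01, 22.4, 23.5 and 27.0 at 1 hr. The 1 hr mice did not overlap with 0 hr in the acute and repeated series and overlapped in the challenge series. The mean of the 3 log2 differences in the LCtx was 0.44 (SE 0.15, robust adjusted p = 0.45), with an exact two-sided permutation p of 0.00778 that is not adjusted for the 50 such tests. In the other structures the 1 hr difference was smaller, at 0.08 in the DS and 0.14 to 0.18 elsewhere.

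Fkbp5 and Tsc22d3 are classical markers of receptor activity. Tsc22d3 encodes the glucocorticoid-induced leucine zipper. Neither was called in any of the 15 combinations (lowest adjusted p 0.441 and 0.053). Their direction was not that of Sgk1 at 1 hr: Fkbp5 was above 0 hr in 8 of 15 at 1 hr, in 11 at 2 hr and in 12 at 4 hr, and Tsc22d3 was below 0 hr in 10 of 15 at 1 hr and above it in 12 at 4 hr. In the NAc after acute cocaine Fkbp5 was at 37.6, 41.9, 42.4 and 47.0 CPM at 0 hr and at 23.0, 29.8, 30.2 and 41.1 at 1 hr. In the LCtx after challenge Fkbp5 was at 13.6 and 20.4 CPM at 0 hr, 17.3, 23.2, 25.8 and 28.1 at 1 hr, and 24.5, 26.9, 31.0 and 31.3 at 2 hr. These are the examples of a lower value at 1 hr and a higher one at 2 hr, and in the NAc 1 mouse of the 1 hr group overlapped with the 0 hr mice. Averaged over experiences, the LCtx difference of Fkbp5 at 2 hr was 0.45 on the log2 scale (SE 0.13, robust adjusted p = 0.54), and that of the LH was 0.34 at 2 hr and 0.36 at 4 hr (SE 0.13 each, robust adjusted p = 0.87 and 0.92). Fkbp5 spans chr17:28399094-28517527 and Tsc22d3 chrX:140539528-140600659, both on the minus strand.

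Plin4, which coats lipid droplets, had few counts, and its values are correspondingly coarse. At 1 hr it was below 0 hr in 13 of 15 combinations, with a median log2 difference of −1.07, and at 4 hr it was above 0 hr in 12 of 15 with a median of 0.71. In the DS after repeated cocaine it was at 2.27, 2.36, 4.36 and 6.28 CPM at 0 hr, 0.571, 1.34, 1.72 and 3.08 at 1 hr, and 6.74, 6.98, 9.33 and 15.03 at 4 hr. The 4 hr mice were all above the 0 hr mice there, while at 1 hr only 1 of the 4 mice reached into the 0 hr range. In 6 of 15 combinations the 1 hr mice were all below the 0 hr mice, against 11.2% of all gene and group pairs, and in 7 of 15 the 4 hr mice were all above them, against 13.4%. The mean difference at 1 hr was −1.06 in the DS (SE 0.38, robust adjusted p = 0.287) and −1.06 in the Amy (SE 0.42, robust adjusted p = 0.815), so the change did not pass the test in these structures or in the others. Plin4 spans chr17:56100591-56109803, minus strand.

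Pdk4, a kinase that shuts off pyruvate dehydrogenase (chr6:5483351-5496309, minus strand), did not pass an unadjusted p of 0.05 in any combination. In the Amy after challenge it was at 3.97, 6.80 and 7.49 CPM at 0 hr and 5.65, 6.27, 9.27 and 10.1 at 1 hr, and the groups overlapped. Its median difference from 0 hr was 0.19 at 1 hr, 0.29 at 2 hr and 0.21 at 4 hr on the log2 scale, none of which passed the test. Between the libraries of 28 resequenced samples single Pdk4 values differed by a median of 0.59.

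Sgk1, the serum- and glucocorticoid-regulated kinase, made the largest excursions among the members that were called. In the LH after acute cocaine Sgk1 was at 96.2 and 98.97 CPM at 0 hr, 260.4 and 271.4 at 1 hr, 115.2 and 135.0 at 2 hr, and 139.6 and 278.4 at 4 hr. After repeated cocaine the LH values were 60.9 and 172.3 CPM at 0 hr, 222.6 and 224.0 at 1 hr, 141.5 and 191.3 at 2 hr, and 218.0 and 294.6 at 4 hr. After challenge the only 0 hr LH mouse had 57.9 CPM, with 156.2 and 227.3 at 1 hr, 93.5 and 130.1 at 2 hr, and 71.3 and 91.7 at 4 hr. In each series both 1 hr mice were above all 0 hr mice, and at 2 hr the values had come down. The 1 hr difference was 1.45 on the log2 scale after acute cocaine (SE 0.24) and 1.73 after challenge (SE 0.30). The time course was called after acute cocaine (adjusted p = 0.0040, robust 0.994, background 0.0529% of genes) and after challenge (adjusted p = 0.0169, robust 0.724, background 0.00755%). The challenge comparison rests on 1 mouse at 0 hr, which the fit assumes to vary like the mice of the other groups. Without naive replicate 1 or 1 hr replicate 1 the acute call was lost (adjusted p = 0.101 and 0.0838), and without challenge 1 hr replicate 1 the challenge call was lost (adjusted p = 0.362, log2 difference 1.44). The SD of Sgk1 between LH mice of a group was 0.44 on the log2 scale.

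In the DS after acute cocaine Sgk1 was at 107.6, 108.6, 110.6 and 221.5 CPM at 0 hr, 200.4, 213.7, 218.6 and 238.4 at 1 hr, 94.6, 128.4, 141.4 and 149.5 at 2 hr, and 119.5, 129.3, 151.0 and 213.6 at 4 hr. After repeated cocaine it was at 103.7, 164.1, 164.5 and 201.0 CPM at 0 hr and 188.8, 189.7, 209.4 and 223.6 at 1 hr. After challenge it was at 86.7, 87.5 and 146.7 CPM at 0 hr and 145.2, 167.9, 168.7 and 169.9 at 1 hr. In each series a single 0 hr mouse overlapped with the 1 hr mice and the rest lay below them. The acute time course was called (1 hr log2 difference 0.72, SE 0.17; adjusted p = 0.0054, robust 0.0584, background 2.62%), and it stayed called without any 1 of the 48 DS mice. In the second libraries of 2 mice per group, which were sequenced in the run that held all experiences, Sgk1 was at 134.1 and 142.4 CPM at 0 hr and 279.6 and 292.5 at 1 hr after acute cocaine.

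In the NAc after acute cocaine Sgk1 was at 76.4, 77.2, 87.3 and 111.9 CPM at 0 hr and 114.6, 121.2, 122.5 and 157.1 at 1 hr, with no overlap. After challenge the NAc values were 67.9 and 84.8 CPM at 0 hr, 82.4, 114.3, 132.9 and 136.5 at 1 hr, and 48.7, 58.4, 63.4 and 63.4 at 4 hr. At 4 hr after challenge all mice were below the 0 hr mice. The NAc calls were narrow. That after acute cocaine had an adjusted p of 0.0458 (robust 0.57, background 0.185%) and was lost without any of 22 of the 36 mice, over which its adjusted p ran from 0.0072 to 0.705. That after challenge had an adjusted p of 0.0017 (robust 0.103, background 0.0925%) and was lost without 1 hr replicate 3 (adjusted p = 0.0532). In the LCtx and Amy no Sgk1 time course was called, with the largest 1 hr difference in the Amy after acute cocaine, 1.02 on the log2 scale (SE 0.22), where 59.8 and 64.7 CPM at 0 hr stood against 109.2 and 144.3 at 1 hr.

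**Figure D1:**
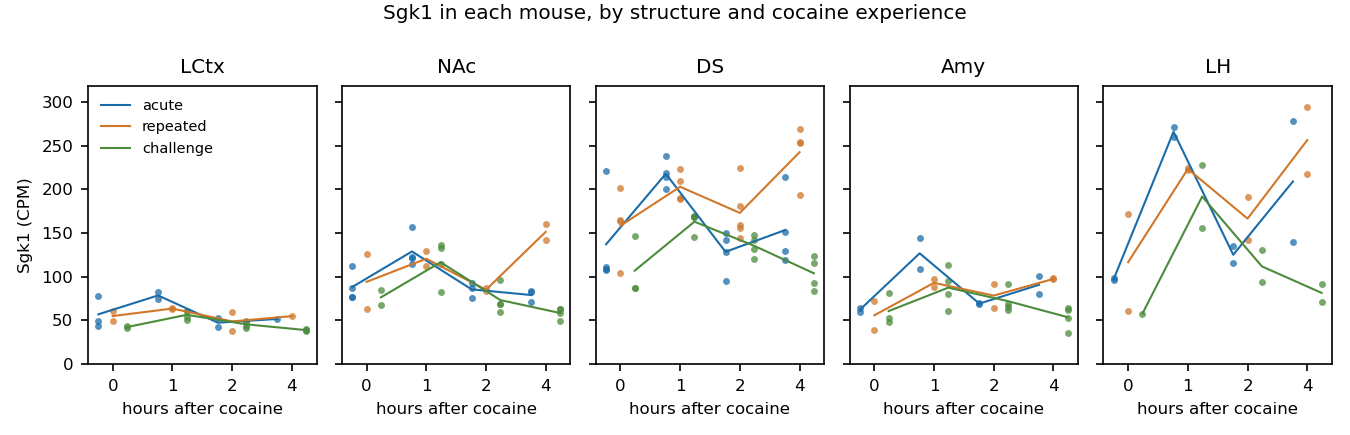
Sgk1 level in CPM (y axis) of each mouse against hours after cocaine (x axis, evenly spaced groups) in the 5 structures. Points are mice and lines join the group means of acute, repeated and challenge cocaine; in the LH after acute cocaine both 1 hr mice (260.4 and 271.4) stand above both 0 hr mice (96.2 and 98.97), and after repeated cocaine the lines of the NAc, DS and LH rise again to 4 hr.

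Ddit4 encodes REDD1, an inhibitor of the mTORC1 growth pathway, in a short gene at chr10:59949669-59951834 on the minus strand. Averaged over experiences, its 1 hr difference was smaller than that of Sgk1 in 4 structures and larger in the LCtx. In the NAc after acute cocaine Ddit4 was at 66.1, 73.2, 74.1 and 82.4 CPM at 0 hr, 94.1, 96.5, 98.3 and 108.8 at 1 hr, 74.3, 76.4 and 79.9 at 2 hr, and 61.5, 63.6 and 71.6 at 4 hr. In the Amy after challenge it was at 53.4, 55.4 and 67.0 CPM at 0 hr, 70.7, 74.2, 83.4 and 91.9 at 1 hr, and 48.0, 49.7, 53.8 and 57.7 at 4 hr. In both the 1 hr mice were all above the 0 hr mice, and the level at 4 hr was back within or below the 0 hr range. The NAc course was called after acute cocaine (1 hr log2 difference 0.42, SE 0.11; adjusted p = 0.0192, robust 0.00839), and the call was lost without any of 5 of 36 mice (adjusted p up to 0.226). The Amy course was called after challenge (0.47; adjusted p = 0.0362, robust 0.0469, background 0.109%), and the call was lost without any of 13 of 31 mice (adjusted p up to 0.497).

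In the DS Ddit4 was called after acute and after repeated cocaine. After acute cocaine it was at 69.8, 82.0, 101.7 and 110.0 CPM at 0 hr, 95.5, 102.2, 116.3 and 124.6 at 1 hr, 71.1, 73.4, 79.3 and 83.2 at 2 hr, and 88.5, 96.1, 97.9 and 121.9 at 4 hr. After repeated cocaine it was at 50.8, 58.9, 66.1 and 70.4 CPM at 0 hr, 60.0, 71.5, 77.0 and 85.0 at 1 hr, 45.2, 47.3, 54.8, 60.7 and 66.8 at 2 hr, and 72.9, 84.3, 94.0 and 108.0 at 4 hr. In both series all 4 hr mice were above all 2 hr mice. After repeated cocaine the largest difference from 0 hr was at 4 hr, when all mice were above the 0 hr mice, while after acute cocaine the 4 hr mice overlapped with the 0 hr mice. This course was called with a 4 hr log2 difference of 0.54 (adjusted p = 0.0011, robust 0.0015, background 0.48%), in the fit of all mice and without any 1 of 48 mice. In the run that held all experiences, with 2 repeated mice per time, it was not called (log2 difference 0.29, adjusted p = 0.653), with 79.2 and 96.3 CPM at 0 hr and 78.4 and 137.4 at 4 hr. The acute call rested on a fold of 1.22 at 1 hr, near the limit of 1.2, with overlapping groups (adjusted p = 0.0303, robust 0.0352), and was lost without any of 5 of 48 mice (adjusted p up to 0.118).

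**Figure D2:**
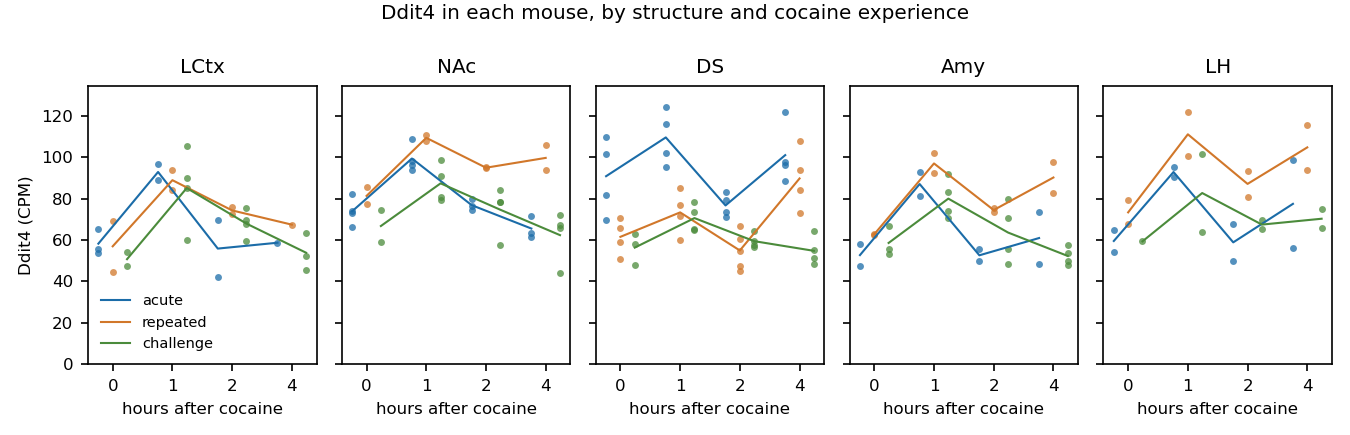
Ddit4 level in CPM (y axis) of each mouse against hours after cocaine (x axis, evenly spaced groups) in the 5 structures, with lines through the group means of each experience. The means of all 15 series are higher at 1 hr than at 0 hr, and in the DS after repeated cocaine the 4 hr mice (72.9 to 108.0) lie above the 0 hr mice (50.8 to 70.4).

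Nfkbia, the inhibitor that holds NF-kB in the cytoplasm and is itself an NF-kB target, was not called in any single series (lowest adjusted p 0.235), although it was above 0 hr in 15 of 15 combinations at 1 hr (11 at 2 hr and 10 at 4 hr). In the LH it was at 42.3 and 42.7 CPM in naive mice and 59.3 and 73.2 at 1 hr after acute cocaine. After repeated cocaine the LH values were 29.0 and 44.7 CPM at 0 hr and 53.8 and 74.7 at 1 hr. After challenge they were 30.9 CPM at 0 hr and 49.4 and 63.3 at 1 hr. All 1 hr mice of the LH were above all 0 hr mice of their series. In the Amy the same separation held in the 3 series, with 34.0 to 44.7 CPM in the 7 mice at 0 hr and 47.8 to 61.3 in the 8 mice at 1 hr.

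Cdkn1a, the cyclin-dependent kinase inhibitor p21 (chr17:29090976-29100727, plus strand), followed another course. It was above 0 hr in 9 of 15 combinations at 1 hr and in 13 of 15 at both 2 and 4 hr. In the NAc after challenge it was at 28.8 and 30.4 CPM at 0 hr, 36.0, 43.4, 56.1 and 58.7 at 1 hr, 47.0, 59.8, 64.3 and 65.8 at 2 hr, and 37.0, 47.3, 47.8 and 56.0 at 4 hr. In the DS after challenge it was at 22.2, 23.1 and 29.6 CPM at 0 hr, 37.8, 38.0, 39.2 and 39.9 at 1 hr, 43.99, 45.9, 45.9 and 46.4 at 2 hr, and 26.2, 27.5, 27.5 and 31.1 at 4 hr. The peak was at 2 hr in both, and in the DS the values at 4 hr were back in reach of 0 hr. The 2 hr difference in the NAc was 1.03 on the log2 scale (SE 0.20, adjusted p = 0.0399 for that time point alone, background 0.0231%), while the whole course missed the threshold (adjusted p = 0.0888). In the DS the whole course after challenge had an adjusted p of 0.158. After acute cocaine in the DS the 0 hr mice were at 21.1, 29.9, 32.4 and 121.3 CPM, the last of these in naive replicate 1, and with it in the fit the acute difference at 4 hr was −0.79 (0.16 without it) and that at 1 hr −0.25 (0.70 without it, adjusted p = 0.0029 for that time point). Without this mouse 7 member courses were called in the DS in place of 3, and without naive replicate 2, naive replicate 3 or abstinent replicate 3 there were 5.

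Averaging the 1 hr difference over the 3 experiences, a comparison added after the data were seen, used all mice of a structure. Of the 50 tests of 10 genes in 5 structures 12 were called, where the share of all genes called was 0.149% (LCtx), 0.162% (NAc), 1.04% (DS), 0.272% (Amy) and 0.0831% (LH). With robust spread 7 were called, and 7 also when 1 repeated 0 hr mouse was left out of all 5 structures (the mouse that is replicate 2 of the NAc). The calls lost without it were Ddit4 of the DS and LH, Nfkbia of the Amy, and Sgk1 and Cdkn1a of the NAc. Ddit4 was called in all 5 structures, with log2 differences of 0.70 for the LCtx (SE 0.11), 0.42 for the NAc (SE 0.07), 0.29 for the DS (SE 0.08), 0.60 for the Amy (SE 0.09) and 0.57 for the LH (SE 0.16). The robust adjusted p of Ddit4 was 0.000133, 0.000418, 0.0336, 6.12e-05 and 0.767 in that order, so the LH call ended. The DS call of Ddit4 was lost without any of 10 of 48 mice (adjusted p up to 0.122), and the LH call without any of 5 of 22 (up to 0.138).

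Sgk1 was called at 1 hr in 4 of 5 structures, with 0.51 for the NAc (SE 0.12), 0.56 for the DS (SE 0.12), 0.77 for the Amy (SE 0.17) and 1.36 for the LH (SE 0.26), while the LCtx difference was 0.36 (SE 0.10). The NAc call was lost without any of 3 of the 36 mice (adjusted p up to 0.153, log2 difference 0.38 to 0.71), and the other 3 were kept without any 1 mouse. With robust spread the DS call alone held (adjusted p = 0.0071), while the others were at 0.122 (NAc), 0.0673 (Amy) and 0.251 (LH). At 4 hr only Sgk1 of the LH was called, at 0.90 (SE 0.26, adjusted p = 0.0168, robust 0.832, background 0.00755%). Nfkbia was called in the Amy at 0.46 (SE 0.09, robust adjusted p = 0.0067) and in the LH at 0.76 (SE 0.16, robust 0.201), and Cdkn1a in the NAc at 0.54 (SE 0.12, robust 0.0259). Without any of 4 of the 31 Amy mice the Nfkbia call there was lost (adjusted p up to 0.132), and without any of 3 of the 36 NAc mice that of Cdkn1a (up to 0.412). Exact two-sided permutation of 0 hr and 1 hr mice within each experience, which needs no model of the spread, gave unadjusted p-values for Sgk1 of 0.0144 (LCtx), 0.00429 (NAc), 0.000233 (DS), 0.00476 (Amy) and 0.00926 (LH). For Ddit4 the exact permutation p was 0.00111, 0.000159, 0.00254, 0.000794 and 0.0185 in the same order, and for Nfkbia 0.00556, 0.00524, 0.00297, 0.00159 and 0.00926. The smallest p that this permutation allows is 0.00926 in the LH and 0.00111 in the LCtx.

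**Figure D3:**
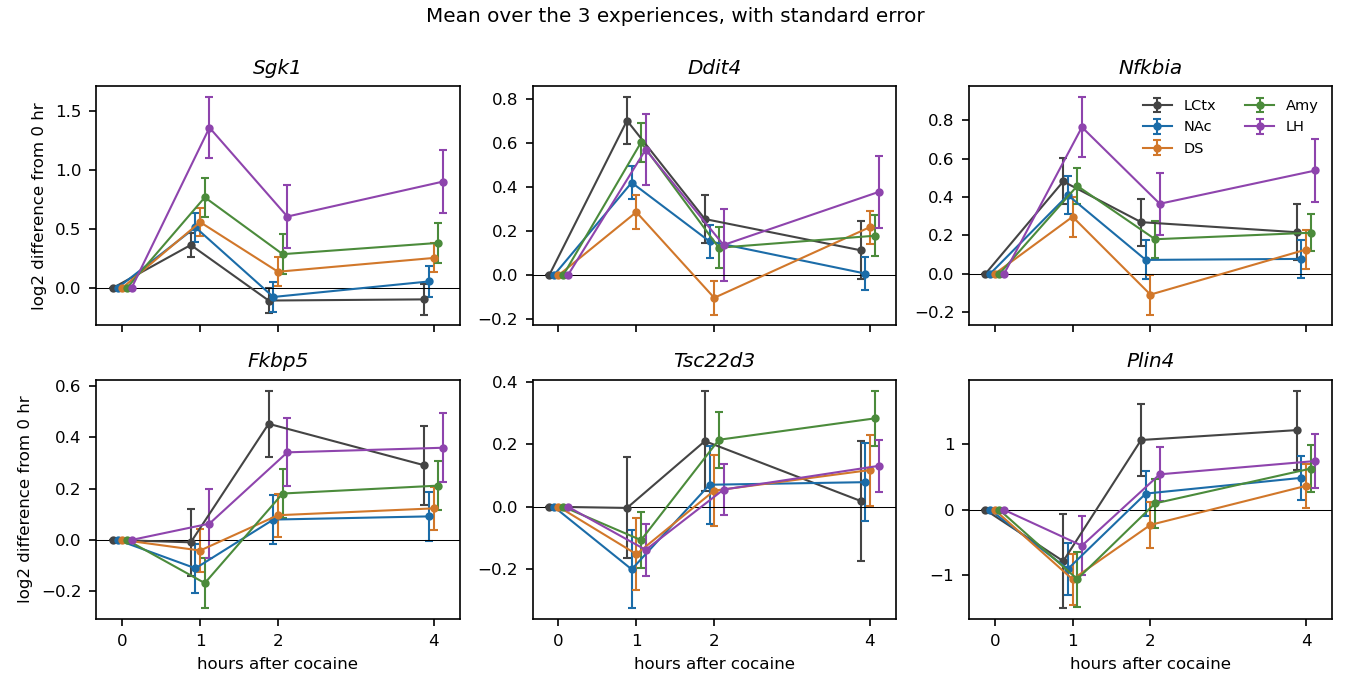
Difference from 0 hr on the log2 scale (y axis), averaged over acute, repeated and challenge cocaine, against hours after cocaine (x axis) for 6 genes and 5 structures. Points are fitted means and bars are standard errors from the fit with robust spread; Sgk1, Ddit4 and Nfkbia are highest at 1 hr, up to 1.36 for Sgk1 in the LH, whereas Plin4 is lowest at 1 hr in each structure.

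Separation of the groups was counted for all genes as a description. At 1 hr all mice were above all 0 hr mice in 13 of 15 combinations for Ddit4, in 10 for Nfkbia and in 8 for Sgk1, against 10.9% of all gene and group pairs. The 2 exceptions of Ddit4 were the DS after acute and after repeated cocaine. For Sgk1 a single high 0 hr mouse made the overlap in several series, as in the 3 DS series above.

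Separation at 4 hr was counted in the same way for each experience. Over the 10 genes and 5 structures, all 4 hr mice were above all 0 hr mice in 30 of 50 pairs after repeated cocaine, where all genes gave 17.3%. The count was 10 of 50 after acute cocaine, against 13.7%, and 7 of 50 after challenge, against 9.16%. The repeated groups outside the DS held only 1 or 2 mice at 4 hr and 2 at 0 hr. By the sample names these were the same mice in each structure, so the pairs are not separate observations. After repeated cocaine Nfkbia and Cdkn1a were separated in all 5 structures, Ddit4, Fkbp5 and Plin4 in 4, Sgk1 in 3, Tsc22d3 and Pdk4 in 2, Nr3c2 in 1 and Nr3c1 in 0. In the NAc Sgk1 was at 62.6 and 125.6 CPM at 0 hr, 83.1 and 86.9 at 2 hr and 142.5 and 159.99 at 4 hr. In the DS it was at 193.6, 252.9, 254.4 and 269.0 CPM at 4 hr, against 103.7 to 201.0 at 0 hr. In the Amy Tsc22d3 was at 59.1 and 86.2 CPM at 0 hr and 105.5 and 114.5 at 4 hr. Plin4 in the NAc was at 2.82 and 5.996 CPM at 0 hr and at 11.4 and 11.5 at 4 hr. The 4 hr values were a second elevation after a lower mean at 2 hr for Sgk1, and the highest of the series for Tsc22d3 and Plin4 in these structures.

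Whether a time course differed between experiences was tested as an interaction, for repeated against acute and challenge against acute cocaine in each structure. None of the 10 members was called in the 10 tests with edgeR or with DESeq2, where 0.00458% of all gene tests were. Without the filter on low counts 8 member tests were called, 5 of them for Sgk1, against 0.282% of all gene tests and 0.376% over the genes that pass the filter. In the fit with the filter 21 of the member tests had an unadjusted p under 0.05, where 4.55% of all gene tests did. The lowest was Sgk1 in the NAc, whose difference from 0 hr at 4 hr was 0.84 higher on the log2 scale after repeated than after acute cocaine (unadjusted p = 0.000582, adjusted p = 0.813). The next was Cdkn1a in the DS (unadjusted p = 0.000932, adjusted p = 0.446), which takes in the naive mouse at 121.3 CPM. Without the naive mouse that is replicate 3 of the DS there were 2 calls, and without that of replicate 4 there was 1. The elevation at 4 hr after repeated cocaine is given as a description of these mice. Clock times of collection were not given in the sources used here, and their part in the 4 hr values was not tested.

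**Figure D4:**
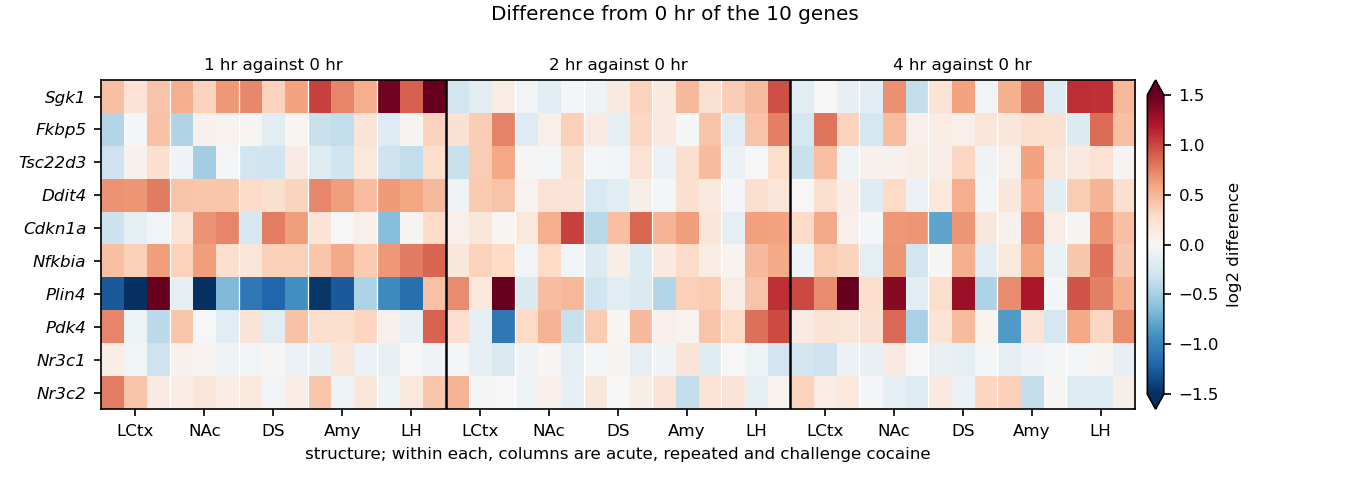
Log2 difference from 0 hr (colour, limited to −1.5 to 1.5) of the 10 genes (rows) at 1, 2 and 4 hr; within each structure the columns are acute, repeated and challenge cocaine. At 1 hr Sgk1, Ddit4 and Nfkbia are above 0 in 15 of 15 columns and Plin4 is below 0 in 13, and Nr3c1 stays between −0.32 and 0.19.

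The 0 hr mice address what remains of earlier cocaine before the next dose. Repeated and abstinent mice were each set against naive mice for the 10 genes in 5 structures. Over both comparisons 3 differences were called, all in abstinent mice and all between sequencing runs. Where they fell, 8.36% (LCtx) and 3.47% (Amy) of all genes were called, so they are not read as an excess over all genes. Tsc22d3 was lower in the LCtx, at 47.8 and 54.6 CPM in abstinent mice against 78.4 and 111.0 in naive mice, with a log2 difference of −0.90 (SE 0.19, adjusted p = 0.0017, background 8.36% of genes). This call was lost without abstinent replicate 1 or naive replicate 1 (adjusted p up to 0.112), and over the 6 mice left out in turn the difference ran from −1.12 to −0.62. Cdkn1a was higher in the LCtx, at 121.6 and 137.0 CPM in abstinent mice against 66.9 and 78.1 in naive mice, with a difference of 0.84 (SE 0.14, adjusted p = 5.22e-05). Cdkn1a was also higher in the Amy, at 25.4, 41.0 and 46.8 CPM against 20.9 and 21.6, with a difference of 0.81 (SE 0.21, adjusted p = 0.0211, background 3.47%). This call was lost without any of 4 of the 7 mice in the fit (adjusted p up to 0.258). Abstinent and naive mice of these structures came from different runs and cohorts and, by the schedule, differed in age. Abstinence, run, cohort and age therefore cannot be told apart. Blood markers also differed between the LCtx groups, as given above. Without either of the 2 repeated mice the number called was 6 or 8. In the LCtx this fit used 2 of the 3 naive mice and, for abstinent replicate 1, another library than the time course. Naive and repeated mice shared a run in 3 structures (DS, Amy and LH), with 2 mice each, but came from different cohorts. In the DS Ddit4 was 0.78 higher in repeated than in naive mice (SE 0.21, adjusted p = 0.0612) and Nr3c1 0.76 lower (SE 0.20, adjusted p = 0.0504, background 1.33%), and neither passed the threshold. Within the run of the other two Ddit4 was 0.24 (Amy) and 0.31 (LH) higher, and the differences of Nr3c1 were −0.41 and −0.31 (adjusted p = 0.258 to 0.603). In the DS libraries of the time courses, which came from other runs, Ddit4 was instead lower in repeated mice at 0 hr (50.8 to 70.4 CPM) than in naive mice (69.8 to 110.0).

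Levels were compared between structures in 15 challenge mice whose LCtx, NAc, Amy and LH were sequenced in the same runs, with the mouse as a block (13, 14, 15 and 7 samples). Samples at 0, 1, 2 and 4 hr were pooled, so the levels take in values after cocaine and are not resting levels. Of 60 tests 31 were called, where the share of all genes called was 42.9% (NAc and LCtx), 35.6% (Amy and LCtx), 56.8% (LH and LCtx), 43.6% (Amy and NAc), 55.6% (LH and NAc) and 44.3% (LH and Amy), a share like that of the members. Sgk1 rose from a mean of 46.9 CPM in the LCtx (SD 7.94) over 68.6 in the Amy (SD 20.3) and 81.1 in the NAc (SD 28.0) to 118.1 in the LH (SD 58.5). The Amy and the NAc were neighbours in that order with a fold of 1.14, which did not reach 1.2, and the other 5 pairs were called. At 0 hr alone the order was not the same. Sgk1 was then at 57.9 CPM in the only LH mouse and 67.9 and 84.8 in the NAc. It was at 48.0 to 81.1 in the Amy and 40.8 and 43.9 in the LCtx. Plin4 had the steepest gradient, with a fold of 5.56 between LH and LCtx (log2 2.48, SE 0.30, adjusted p = 4.49e-11). Cdkn1a ran the other way, with 113.2 CPM in the LCtx against 48.3 in the NAc (log2 −1.22, SE 0.07, adjusted p = 3.57e-23), 39.6 in the Amy and 38.4 in the LH. Nr3c2 was highest in the NAc at 33.5 CPM and lowest in the LH at 14.997 (log2 −1.197, SE 0.12, adjusted p = 2.48e-13). Ddit4 (63.3 to 73.2 CPM) and Nr3c1 (67.2 to 77.0 CPM) were not called in any of the 6 pairs. In the same samples summed oligodendrocyte markers, all 8 detected, had medians of 1581 CPM (LCtx), 5023 (NAc), 5319 (Amy) and 15202 (LH), and the means of Plin4 were 1.60, 3.48, 3.61 and 7.85 CPM in that order. Medians of endothelial (250 to 294 CPM), astrocyte (3629 to 4173) and microglia markers (581 to 872) spanned less than 2-fold over the structures, and their part in these differences was not tested. Over all mice of the 3 experiences the mean of Sgk1 was 161.6 CPM in the DS (SD 49.1, 48 mice), which shared no run with the other structures, and 163.0 in the LH (SD 74.1, 23 mice).

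Structures were matched to a mouse by the cohort and animal number in the sample names, and the labels do not state outright that these are the same animals. With that match, high Sgk1 values of different structures fell in the same mice. One repeated mouse at 0 hr had 60.9 CPM (LCtx), 125.6 (NAc), 201.0 (DS), 72.1 (Amy) and 172.3 (LH). Its partner in the same group had 49.0, 62.6, 103.7, 39.5 and 60.9 CPM in that order. The first mouse was higher in all 5 structures. The naive mouse with 221.5 CPM in the DS was also the highest of its group in the NAc (111.9) and LCtx (78.1), but not in the LH (96.2 against 98.97). Over 220 pairs of structures from 37 mice, each value taken as the log2 deviation from the mean of its condition and run, the deviations of Sgk1 correlated at r = 0.652 and had the same sign in 78.2% of pairs. The median over 14297 genes was r = 0.020, and 2 genes had a higher r than Sgk1. Tsc22d3 was at r = 0.627, with 7 genes higher, Nfkbia at 0.425, Plin4 at 0.368, Ddit4 at 0.306 and Fkbp5 at 0.289. Pdk4 (0.056), Nr3c2 (0.038), Cdkn1a (−0.005) and Nr3c1 (−0.015) were near the median of all genes. The pairs share mice and, in groups of 2, the deviations mirror each other, so these values are descriptive.

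**Figure D5:**
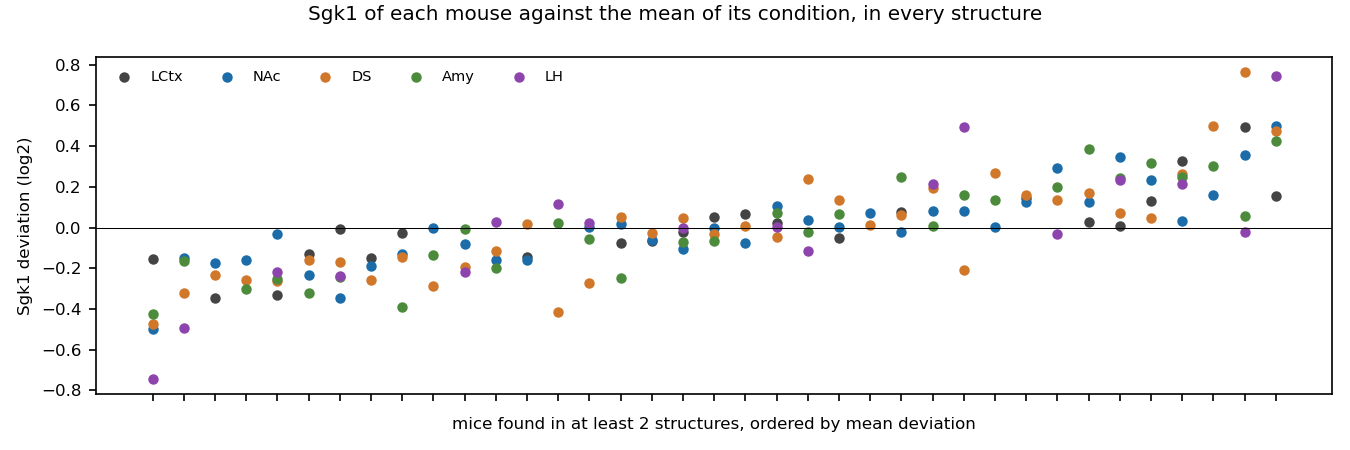
Deviation of Sgk1 from the mean of its condition on the log2 scale (y axis) in each structure of the 37 mice with values in at least 2 structures that could be set against another mouse of the same condition and run, ordered by mean deviation (x axis). Points of 1 mouse share a column. Those at both ends of the order lie on the same side of 0 in nearly all structures, which ordering by mean deviation favours in advance.

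The genes whose 45 differences from 0 hr were most like those of 3 members were then listed, among 12295 genes tested in all structures. The values share 0 hr mice, libraries and mice, and the correlations describe likeness in these data alone. For Sgk1 they were Nfkbia (r = 0.735), Ddit4 (0.648) and Arl4d (0.633), so the 2 nearest of all genes were members. For Fkbp5 they were Hif3a (0.689), Smim3 (0.666) and Slc2a1 (0.643), with Tsc22d3 at 0.611 and Plin4 at 0.545. For Tsc22d3 they were Pfkm (0.613), Smim3 (0.612) and Fkbp5 (0.611). Sgk1 itself was at r = −0.021 with Fkbp5 and −0.020 with Tsc22d3.

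Among 20 other genes known to be induced by glucocorticoids, Dusp1 was called in 7 of the 15 combinations and Per1 in 6, and all of these were highest at 1 hr. Dusp1 encodes a phosphatase of MAP kinases, and Per1 is a circadian clock gene; both are also induced by neuronal activity. In the DS the 1 hr log2 difference of Per1 was 1.18 after acute, 0.79 after repeated and 0.87 after challenge cocaine, and that of Dusp1 was 1.22, 1.76 and 1.27. Neither was called in the LH. Of the other 18 genes, Bcl6 was called higher in the DS after acute cocaine (0.63 at 1 hr), Klf9 lower in the NAc after acute cocaine (−0.71 at 4 hr) and Mt2 lower in the DS after acute cocaine (−0.76 at 2 hr). The 15 remaining genes, among them Errfi1, Zbtb16, Cebpd and Hif3a, were not called in any combination. Of 13 genes of the receptor machinery, which include chaperones, coregulators and the enzymes that convert the hormone, 12 were tested and 1 was called, in the DS after acute cocaine, where 2.62% of all genes were. It was Abcb1a, which encodes an export pump of the blood-brain barrier, with a log2 difference of 0.89 at 4 hr, and it is named here after its values were seen.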

How the data were processed

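Total RNA of 5 brain structures was sequenced from the 3′ end with unique molecular identifiers. The authors aligned the reads to GRCm38 with STAR, counted them per gene with HTSeq and deposited UMI-collapsed counts, whole numbers without normalization. The methods state that the deepest samples were down-sampled, and whether the deposited counts precede that step was not determined. Tool versions are not given in the sources used here. Groups, replicates and runs came from the labels, and mice from the cohort and animal numbers in the sample names. For time courses 1 library per mouse was used (in the LH, libraries of a mouse were summed).

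Counts were filtered with filterByExpr, scaled by TMM and tested in edgeR 4.0.16 (R 4.3.3) with quasi-likelihood F tests and 1 fit of 12 groups per structure, with p-values adjusted over all genes. CPM are TMM-scaled. Calls needed an adjusted p under 0.05 and a fold over 1.2; interactions needed the adjusted p alone. Permutation tests used log2(CPM + 1). DESeq2 1.42.0 and other settings were alternatives. The tests were tried on simulated data. Intervals were not computed for single counts.

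The members and gene lists were chosen with earlier results of these data known. Named genes are the members, list genes called in at least 4 of 15 combinations (Bcl6, Klf9 and Mt2 were named after their values were seen, like the 4 examples of uncalled genes), and for Sgk1, Fkbp5 and Tsc22d3 the 3 genes most like each. Promoters are from RefSeq (GRCm38.p6) and gene coordinates from GENCODE M21, which may not be the annotation that was counted. Counts do not tell overlapping genes apart where strand is not stated. One member's locus and promoter are not reported here.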

Additional observations from a re-analysis of the deposited data

Results flagged for a closer look

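Values of the members were scanned for a mouse far from the others in each group of 4 or 5 mice, by the gap to its neighbour over the range of the group. In 13 of 210 groups the gap passed Dixon's critical value, where chance alone gives about 1 in 20 groups. In the DS before acute cocaine, replicate 2 had 221.5 CPM of Sgk1 (others 107.6 to 110.6) and replicate 1 had 121.3 CPM of Cdkn1a (others 21.1 to 32.4). In the DS 1 hr after challenge, replicate 2 had 145.2 CPM of Sgk1 (others 167.9 to 169.9). Fkbp5 in the DS of repeated mice was at 38.1 CPM in 0 hr replicate 2 (others 42.7 to 43.6) and at 23.7 in 2 hr replicate 1 (others 39.4 to 43.2). Nfkbia in the NAc 1 hr after acute cocaine was at 56.6 CPM in replicate 1 (others 46.1 to 46.5), and Nr3c1 in naive NAc replicate 3 at 70.4 (others 66.8 to 67.4). At 4 hr after challenge Nr3c2 was at 29.1 CPM in DS replicate 4 (others 35.0 to 36.2), and Pdk4 was at 12.4 in DS replicate 3 (others 8.70 to 9.25) and at 4.30 in Amy replicate 2 (others 5.25 to 5.44). Plin4 was at 5.93 CPM in the DS 1 hr after acute cocaine in replicate 2 (others 1.51 to 1.93), at 4.63 in the NAc 1 hr after challenge in replicate 4 (others 1.38 to 1.53) and at 6.70 in the NAc 4 hr after challenge in replicate 3 (others 1.65 to 2.34).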

How the results depend on the processing

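None of the 24 named calls changed sign under any setting tried, but the acute difference of Cdkn1a in the DS turned without naive replicate 1 from −0.79 to 0.16 at 4 hr, and from −0.25 to 0.70 at 1 hr (adjusted p = 0.0029). Over the settings other than leaving out a mouse the named calls kept their side of the threshold 162 times and lost it 36 times. The number of member courses called over time, each a gene in 1 experience, was 0, 3, 3, 1 and 2 in the LCtx, NAc, DS, Amy and LH. Without the filter on low counts it was 4, 7, 11, 10 and 12, and 0.843% in place of 0.322% of tests were called over the genes that pass the filter. With a fold over 1.5 it was 1 in the NAc, 1 in the DS and 0 in the Amy. Fitting each experience alone gave 7 (DS), 3 (Amy) and 5 (LH). DESeq2 gave 2 in the Amy and 0 in the LH, and robust spread 1 in the NAc and 0 in the LH. Run as a covariate gave 1 in the LCtx and 5 in the Amy, and the run that held all DS experiences gave 1. Leaving out each mouse gave 0 to 1, 1 to 5, 2 to 7, 0 to 3 and 1 to 3. The NAc count was 5 without challenge 4 hr replicate 1, and 1 without acute 1 hr replicate 1, 2 or 4 or acute 4 hr replicate 1 or 2. The LCtx count was 1 without challenge 1 hr replicate 4, challenge 4 hr replicate 1, naive replicate 1 or acute 2 hr replicate 1, and the LH count was 1 without naive replicate 1 or replicate 1 of acute or challenge 1 hr. The Amy count was 0 without abstinent replicate 1, challenge 1 hr replicate 1 or 4, challenge 4 hr replicate 1, acute 1 hr replicate 1 or repeated 1 hr replicate 2. It was 2 without repeated 0 hr replicate 1, challenge 2 hr replicate 2, challenge 4 hr replicate 3 or acute 4 hr replicate 1, and 3 without abstinent replicate 3, challenge 1 hr replicate 2, challenge 2 hr replicate 3 or acute 4 hr replicate 2.

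The called member tests numbered 0 for a difference of course between experiences (8 without the filter, 0 to 2 leaving out a mouse). At 0 hr they numbered 3 (9 without the filter, 6 with all libraries of every mouse, 2 to 8 leaving out a mouse), between structures 31 (18 at a fold over 1.5, 27 to 33 leaving out a mouse), and at 1 hr over the experiences 12 (5 at a fold over 1.5, 7 with robust spread, 7 to 13 leaving out a mouse). The cause of these shifts was not tested, apart from robust spread, which raises the spread of genes that vary widely between mice.

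Replicate numbers did not pair the mice: the median correlation of deviations between mice of the same number was −0.008 to 0.030. With the replicate block the time courses gave 1, 1, 4, 5 and 2 calls in the order above, 0 differed between experiences, 6 at 0 hr, and 14 at 1 hr over the experiences. Mice alone in their group (LCtx at 4 hr after acute or repeated cocaine, abstinent LH) could not be left out. Groups of 1 or 2 mice may miss small changes of these genes, and the smallest detectable change was not determined.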
